A study of Canis lupus familiaris with 77 samples.

Results

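The comparison set circulating miRNAs in plasma against miRNAs in bone marrow, the blood-forming tissue, in the miR-seq atlas of beagle dog tissues. Members are the 5 libraries labelled Plasma and the 5 labelled Bone Marrow (2 mL), 10 of the 76 libraries with values, and all 477 miRNAs with at least 1 read in either group were described, 443 of them detected in plasma and 382 in bone marrow. All dogs were untreated male Marshall Beagles of 10 months, perfused with phosphate buffered saline before organs were collected, and plasma was taken with K2EDTA. Per the study's methods 5 dogs gave all tissues, so both groups come from the same dogs, but the labels carry no dog number and do not say which plasma belongs with which bone marrow. Libraries were therefore not paired, and p-values measure only the spread between these samples. The label of each sample names one preparation for all, whereas the methods describe a phenol-based extraction for bone marrow and a separate extraction from a small volume for plasma. The study also reports low RNA integrity for plasma, and in bone marrow a lower share of mapped reads that went with low integrity. Tissue, extraction and RNA integrity therefore cannot be told apart in any value below.

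miRNAs are short RNAs that guide Argonaute proteins to partly complementary messenger RNAs and so repress them. Each is cut from a hairpin whose 5p and 3p arms can both be used, and hairpins often lie in clusters transcribed together. In blood, red cells lose their nucleus but keep miRNAs, of which miR-451, miR-144 and miR-486 are the best known, and plasma carries miRNAs in vesicles and protein complexes shed by blood cells and organs. Bone marrow holds the progenitors of red cells, myeloid cells and lymphocytes together with stromal, fat and vessel cells. In such bulk samples fewer cells of a type and less RNA per cell cannot be told apart. miRNAs are named here by the first dog name in the deposited feature, without its prefix, and with the arm where the feature's human or rat name gives one and both arms are discussed. The deposited feature for miR-486 holds both of its arms.

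The libraries differed in depth. Plasma held 274790 to 1765863 reads on miRNAs and bone marrow 162310 to 239023. Values are counts of reads and RPM, reads per 1000000 of that total. A miRNA without a read could still have reached 3 reads, which equalled 1.7 to 10.9 RPM in plasma and 12.6 to 18.5 RPM in bone marrow. Plasma 1 stood apart, with the smallest total of the plasma group, 229 miRNAs detected against 356 to 387 in the other 4, and the largest share of miR-486. Mean Spearman correlations over the 477 miRNAs were 0.903 between plasma libraries, 0.887 between bone marrow libraries and 0.744 between the groups, as a description with library and depth shared by each point. Detected miRNAs numbered 344 ± 65.8 (SD, n = 5) in plasma and 293 ± 2.07 in bone marrow (two-sided exact permutation p = 0.103). Thinned to 162310 reads each, the order turned round, to 241 ± 26.5 in plasma and 281 ± 10.1 in bone marrow without overlap (exact permutation p = 0.00794, the smallest that 5 against 5 allows).

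A red cell miRNA filled plasma, whereas 2 miRNAs of the HOX clusters and miR-26a filled bone marrow. miR-486 was at 760806, 423281, 579253, 513302 and 600372 RPM in plasma 1 to 5 and at 90081, 65253, 93202, 52663 and 61799 RPM in bone marrow 1 to 5. Every plasma library held more of it than any bone marrow library. miR-486 was not particular to blood. The study also lists it among the most abundant miRNAs of heart and skeletal muscle, at higher levels than in bone marrow. In bone marrow the leading miRNA was miR-10b, at 217171, 319237, 300029, 321393 and 327584 RPM, followed by miR-26a at 136689, 192362, 137638, 115772 and 158354 RPM and miR-10a at 70309.9, 70759, 73918, 72208 and 61813 RPM. Ordered by median, these were numbers 14, 35 and 30 in plasma. The single most abundant miRNA took 57.5% ± 12.5 (SD, n = 5) of plasma reads and 29.7% ± 4.58 of bone marrow reads (exact permutation p = 0.00794). For the 10 most abundant together the shares were 84.5% ± 6.09 and 75.9% ± 3.48 (exact permutation p = 0.0397), ranges that overlapped, and the p rose to between 0.0635 and 0.0794 when plasma 1, 3, 4 or 5 or bone marrow 1, 4 or 5 was left out.

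**Figure D1:**
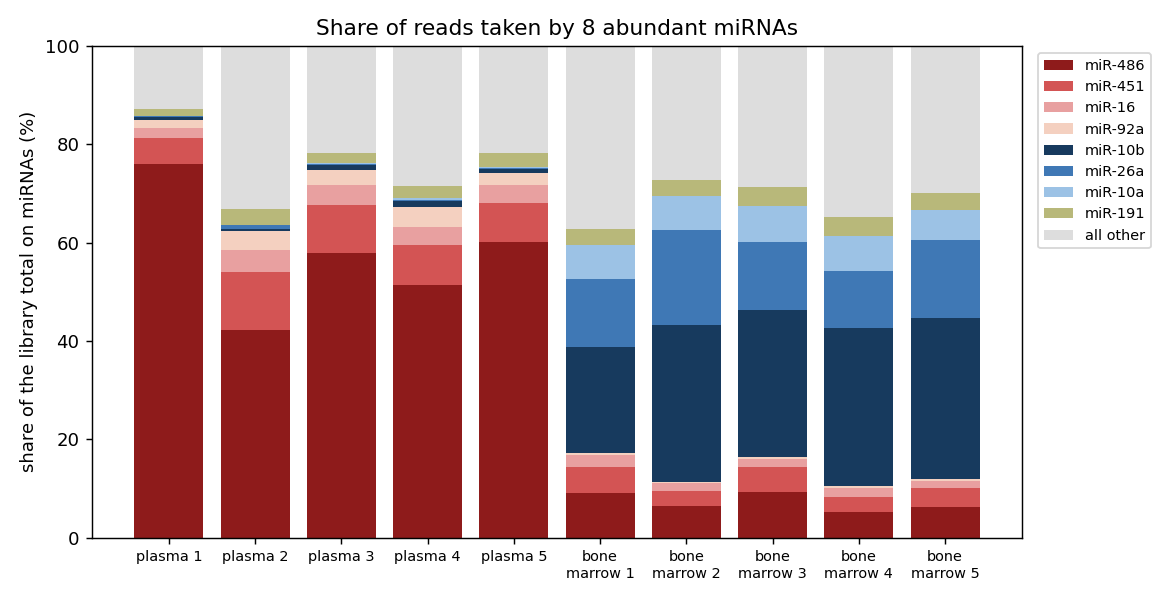
Share of the library total on miRNAs, in percent, taken by 8 abundant miRNAs in each of the 5 plasma and 5 bone marrow libraries. The bar of miR-486 covers 42.3% to 76.1% of each plasma library, and miR-10b, the dark blue part, covers 21.7% to 32.8% of each bone marrow library.

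The 10 highest medians of the groups shared 4 miRNAs, miR-486, miR-451, miR-191 and miR-186. miR-191 was at 13934 to 32094 RPM in plasma and 31394 to 38745 RPM in bone marrow, and miR-186 at 7599 to 15100.3 and 14656 to 25303 RPM. Neither passed the test, with fitted log2 fold changes of 0.44 ± 0.21 (adjusted p = 0.0731) and 0.41 ± 0.22 (adjusted p = 0.095), and both turned negative under library totals. The call went both ways. miR-191 and miR-186 were called higher in plasma without plasma 2 (0.46 and 0.47), with library totals less miR-486 (0.58 and 0.52) and without a filter (0.82 and 0.80), and higher in bone marrow by the exact rank-sum test on RPM (-0.57 and -0.63, adjusted p = 0.0452 and 0.0247). Besides these, the plasma 10 held miR-16, miR-92a, miR-25, miR-142-5p, miR-423-5p and miR-93, and the bone marrow 10 held miR-10b, miR-26a, miR-10a, miR-181a, miR-30a and miR-126-5p.

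With 1 miRNA taking so much of plasma, the scaling decides where a fold change of 0 lies. edgeR's quasi-likelihood test with TMM scaling, Benjamini-Hochberg adjusted, tested the 151 miRNAs that passed a filter on low counts and called 124 at an adjusted p under 0.05, 82.1% of those tested. The other 326 of the 477 were not tested, and 134 of them had 3 reads or fewer in every library of both groups. A miRNA could pass this filter through 1 group alone, which nearly fixes its direction. Counts of list members called are therefore descriptions. Of the 151, 68 (45%) were higher in plasma and 56 (37.1%) higher in bone marrow. On the RPM scale every plasma library exceeded every bone marrow library for 29 miRNAs (19.2%), and the reverse held for 58 (38.4%). The median log2 fold change over all tested, plasma over bone marrow, was 0.41 under TMM and -0.46 under library totals, and the split moved to 41 higher in plasma and 68 higher in bone marrow under library totals. Under DESeq2 size factors it was 63 and 66, and with miR-486 left out of the scaling 61 and 65. Directions that hold under 5 scalings, counting an added one with library totals less miR-486, were therefore separated from those that do not. Under all of them 41 miRNAs (27.2%) were called higher in plasma, counting miR-486, which 3 of the 5 keep, and 50 (33.1%) higher in bone marrow, and 33 called under TMM lost the call under at least 1. The sign itself changed for 21 of the 151, 4 of them called, namely miR-1307-5p, miR-23b, miR-17-5p and let-7b, of which the first and second were named after their values were seen. Fold changes below are those of the TMM fit as log2 ± SE, and every one is relative to the shift just given.

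**Figure D2:**
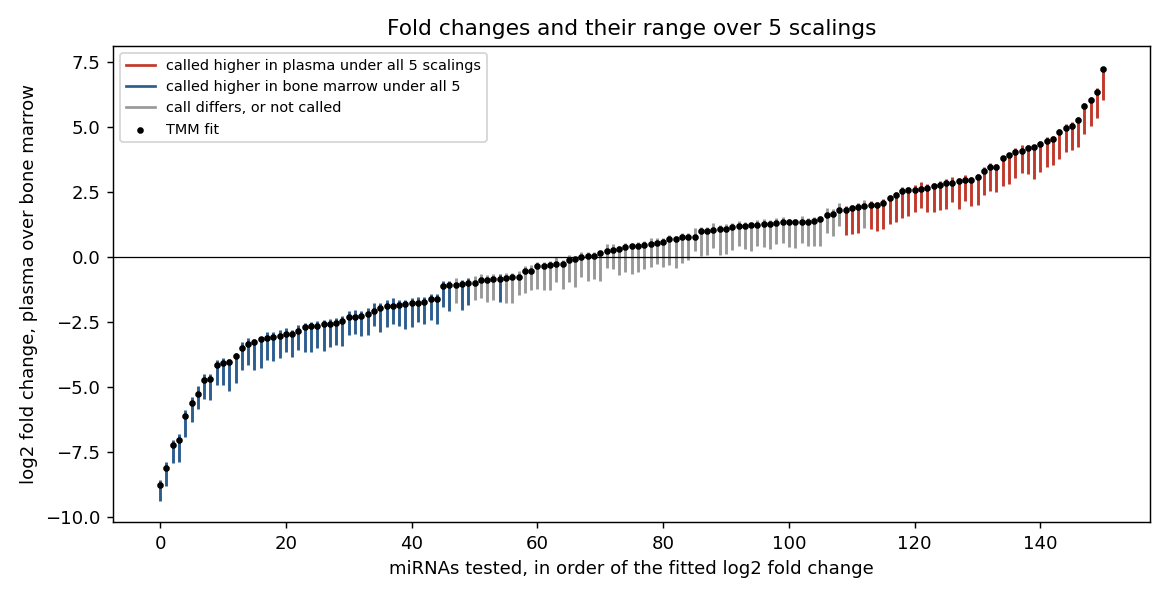
Fitted log2 fold change of plasma over bone marrow for the 151 tested miRNAs in rising order, with the TMM fit as a point and the range over 5 scalings as a line. Red and blue lines mark the 41 and 50 miRNAs called in 1 direction under all 5 scalings, or under the 3 that keep it for miR-486, and the grey lines near 0 mark the rest.

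Red cell miRNAs were higher in plasma. All 4 tested members of the list (both arms of miR-144, miR-451 and miR-486) were called higher in plasma, against 45% of all tested. miR-451 and miR-144-3p were called under all 5 scalings, and miR-486 under the 3 that keep it. The median log2 fold change of the list was 2.53, 1.52 to 2.53 over the scalings, beside 0.41 over all tested. Their summed level was 545235 to 816358 RPM in plasma and 84257 to 146066 RPM in bone marrow, without overlap. miR-486 rose by 4.25 ± 0.50, adjusted p = 2.9e-06, 2.99 to 4.25 over the 3 scalings that keep it. miR-451, which is cut by Argonaute 2 rather than Dicer and is needed for red cell maturation, was at 52993, 116508, 98088, 82461 and 79853 RPM in plasma and 53472, 30491, 49970.5, 30394 and 38793 RPM in bone marrow. Plasma 1 fell inside the bone marrow range, and the other 4 lay above it. The fit gave 2.09 ± 0.27, adjusted p = 7.8e-06. Of the miR-144 hairpin, the neighbour of miR-451, the 3p arm was at 1925, 3979, 3733, 3724 and 3741 RPM in plasma and 1374, 807, 1032, 582 and 625 RPM in bone marrow, and every plasma library exceeded every bone marrow library (2.96 ± 0.29, adjusted p = 5.26e-07). The 5p arm overlapped between groups, at 633 to 1467 and 619 to 1502 RPM, and its call (1.10 ± 0.29, adjusted p = 0.00261) was lost under library totals, where it was 0.13. A ratio within a library needs no scaling. log2 of miR-451 over miR-23a, used as a sign of red cell content in plasma, was 5.99 ± 0.61 (SD, n = 5) in plasma and 5.11 ± 0.43 in bone marrow, with overlap (exact permutation p = 0.0397), and the p was 0.0794 without plasma 1, 3 or 5 or bone marrow 2, 4 or 5. How far red cell content of the plasma samples enters these values was not tested.

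miRNAs of the miR-17/92 and miR-106b/25 clusters, known for driving proliferation of blood progenitors, did not all move alike. miR-106b, miR-93 and miR-25 of the miR-106b/25 cluster were called higher in plasma under every scaling, and of the 5 tested neighbours in the miR-17/92 cluster only miR-19a and miR-92a were. Copies of miR-92a and miR-19b also lie beside miR-363 in a further group, so their reads were not assigned to 1 cluster. Over the whole list of 11 tested, 7 were called higher in plasma (45% of all tested) and 0 higher in bone marrow, 5 of them under all scalings (27.2% of all tested), with a median log2 fold change of 1.36 (0.35 to 1.48 over the scalings). miR-92a was at 18079, 37148, 30834, 39720.3 and 23888 RPM in plasma and 4159, 2021, 3675, 3412 and 3063 RPM in bone marrow. The lowest plasma value was several times the highest bone marrow value (4.21 ± 0.25, adjusted p = 8.27e-09). miR-25 had 13891 to 25108 RPM in plasma and 4552 to 7781 RPM in bone marrow (2.93 ± 0.24, adjusted p = 1.01e-07), and miR-93 9192 to 16250.4 and 1495 to 2933 RPM (3.79 ± 0.28, adjusted p = 4.42e-08), both without overlap. miR-106b and miR-19a were also called higher in plasma under all scalings, by 1.93 and 2.95, with overlapping RPM. miR-17-5p, called at 0.59 under TMM, was at -0.36 under library totals. That call was also lost when plasma 3 or bone marrow 2, 4 or 5 was left out, where the values were 0.38, 0.46, 0.44 and 0.32. miR-18a was at 36.4 to 65.7 RPM in plasma and 92 to 169 RPM in bone marrow, and miR-363 at 50.9 to 184 and 197 to 370.3 RPM. On the RPM scale every bone marrow library exceeded every plasma library for both. They were not called under TMM (-0.31 and -0.34), and were called higher in bone marrow under library totals (-1.26 and -1.25) and by the exact rank-sum test (adjusted p = 0.0138 for each). miR-20a and miR-19b overlapped and were not called, at 0.38 and 0.54, and both were negative under library totals.

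miRNAs commonly reported in plasma, used here as a circulation list, were called higher in plasma for the most part. Of 8 tested members 7 were called higher in plasma (45% of all tested) and 0 higher in bone marrow, 5 under all scalings (27.2%), with a median of 3.16 (2.07 to 3.25). Their summed level overlapped, at 40129 to 73717 RPM in plasma and 34796 to 43782 RPM in bone marrow. miR-423-5p, from a hairpin expressed in most tissues, was at 14717, 9016, 20890.2, 21043 and 19489 RPM in plasma and only 345, 167, 232, 307 and 248 RPM in bone marrow. No value came near those of the other group, and the ratio of means was 65.5 on the RPM scale (7.24 ± 0.46, adjusted p = 1.47e-08). Among the 16 tissues its median was the highest in plasma and the lowest in bone marrow. The 3p arm of the same hairpin was at 3031 to 7581 RPM in plasma and 121 to 364 RPM in bone marrow (5.29 ± 0.36, adjusted p = 2.36e-08). Reads of miR-423 lie over a human miRNA of the opposite strand, miR-3184, and the source of these reads was not separated. miR-107 was at 3643, 4286, 5608, 9034 and 5365 RPM in plasma and 826, 322, 638, 571 and 510.4 RPM in bone marrow (4.37 ± 0.33, adjusted p = 4.84e-08), and its relative miR-103 at 3847 to 9402 and 1774 to 3049.7 RPM (2.40 ± 0.26, adjusted p = 1.06e-06). miR-484 rose by 3.91 without overlap. miR-320 rose by 1.49 under TMM, with overlap, and by 0.43 without a call under library totals.

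Among the 12 largest rises by the naming rule, several come from no blood cell list. miR-128, best known from neurons, was at 1649, 3224, 3712, 4284 and 3244 RPM in plasma and 369.7, 226, 319, 275 and 207 RPM in bone marrow. The groups were far apart (4.55 ± 0.27, adjusted p = 8.27e-09), although the brain median of 34047 RPM was higher still. miR-301a was at 298 to 809 RPM in plasma and 21.6 to 55.2 RPM in bone marrow (5.05 ± 0.28, adjusted p = 8.27e-09). miR-744-5p (269 to 455 against 0 to 18.4 RPM), miR-331-5p (76.4 to 231 against 0 to 21.6 RPM) and miR-16-3p (102 to 176 against 4.6 to 24.6 RPM) rose by 5.80, 4.97 and 4.47. No bone marrow library held more than 4 reads of any of the last 3, so the size of their fold changes rests on low counts.

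Most tested miRNAs of the epithelial list were higher in plasma, and several members had almost no reads in bone marrow. Of 18 members of the epithelial list 5 were tested, 4 called higher in plasma under every scaling (27.2% of all tested) and 0 higher in bone marrow, with a median of 4.04 (3.03 to 4.18). Their summed level was 10073 to 33440.1 RPM in plasma and 1853 to 3135 RPM in bone marrow. miR-192, of intestinal, hepatic and renal epithelium, made up most of it, at 9294, 10683, 16762, 30131 and 10529 RPM in plasma and 1676, 1527, 2767, 1931 and 1554 RPM in bone marrow (4.04 ± 0.37, adjusted p = 2.98e-07). All plasma values lay above all bone marrow values, with plasma 4 the highest. miR-375, of endocrine and gland cells, was at 251, 109.9, 391, 1055 and 283 RPM in plasma and 18.5, 4.18, 0, 10.6 and 18.4 RPM in bone marrow (6.37 ± 0.74, adjusted p = 2.23e-06), and miR-203, of squamous epithelium, at 149, 118, 261, 637 and 334 and 6.16, 8.37, 0, 10.6 and 18.4 RPM (6.04 ± 0.63, adjusted p = 8.39e-07). Plasma 4 was again the highest for both, and no bone marrow library held more than 4 reads of either. Both passed the filter on low counts through plasma alone, so their direction adds no weight to the count of members called. miR-141 rose by 2.26 with overlap, and miR-194, the other tested member, was not called. miR-205 had 0 reads in every bone marrow library and 43.7, 17, 35.3, 109 and 71.9 RPM in plasma, at least 3.6-fold higher against 3 reads per library. miR-429 also had 0 bone marrow reads, and at most 61.3 RPM in plasma. The source of these reads was not tested.

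**Figure D3:**
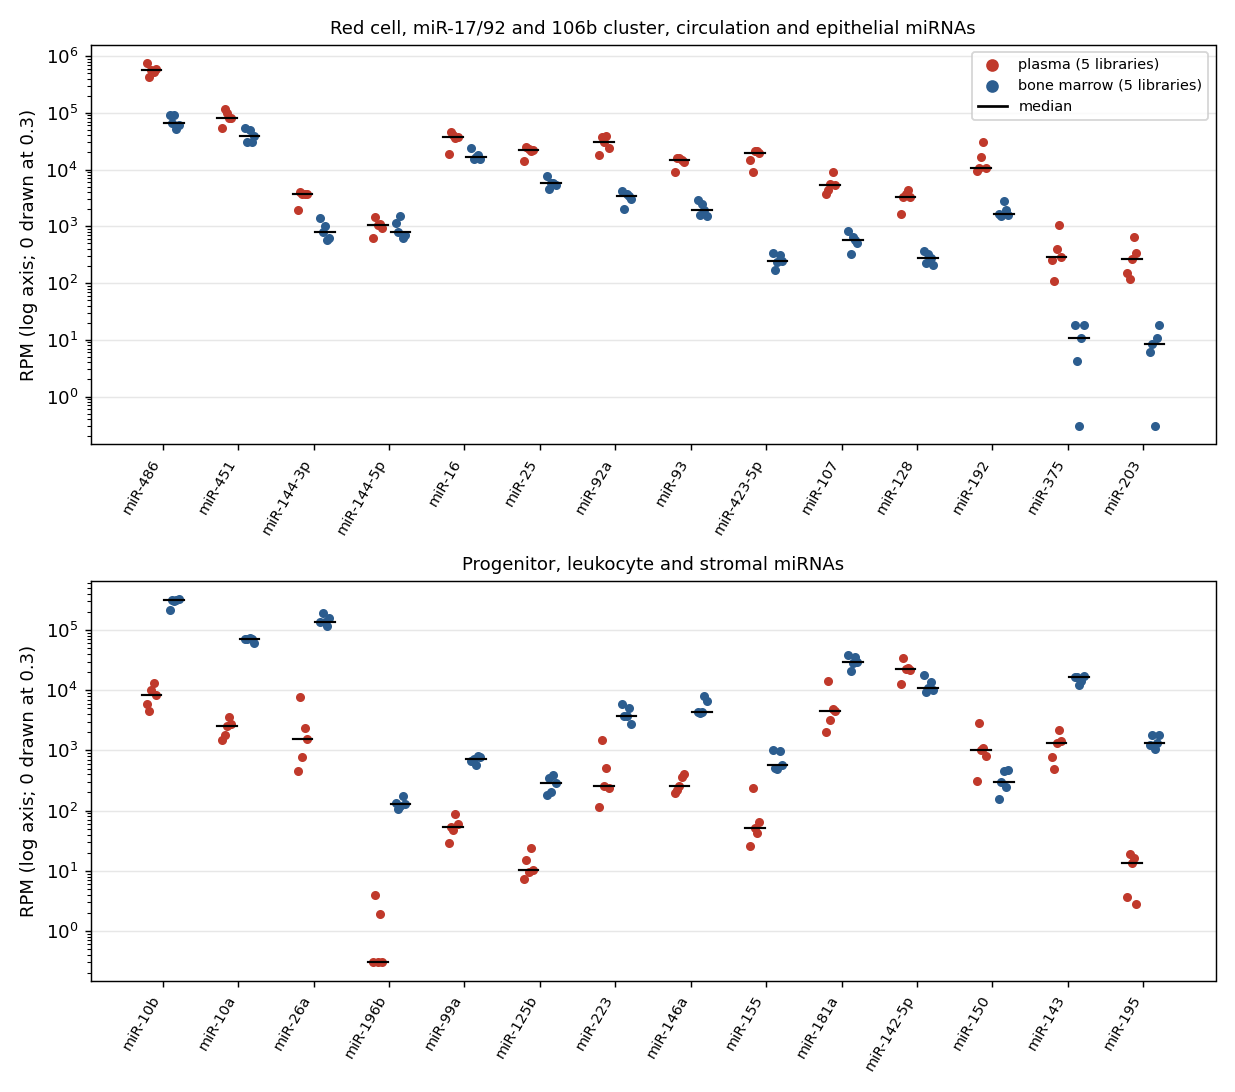
RPM on a log axis for 28 named miRNAs in the 5 plasma libraries (red) and the 5 bone marrow libraries (blue), with the median as a bar and values of 0 drawn at 0.3. Red lies above blue without overlap for miR-486, miR-25, miR-92a, miR-93, miR-423-5p, miR-107, miR-128, miR-192, miR-375 and miR-203, and below it for miR-10b, miR-10a, miR-26a, miR-223, miR-146a, miR-155, miR-143 and miR-195.

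Of the single-organ lists, that of brain differed and the others were at low levels. The brain list summed to 1670.4 to 4312 RPM in plasma and 281 to 449.8 RPM in bone marrow, without overlap, most of it miR-128 as given above, the 1 member tested. The liver miRNA miR-122, with a median of 22008 RPM in liver, had a median of 0 in both groups and at most 0.566 RPM in plasma and 10.8 RPM in bone marrow, which is 1 and 2 reads. The sum of the 4 liver list members was at most 4.47 RPM in plasma. miR-216a, of pancreatic acinar cells, was at 18.2, 6.23, 18, 51.1 and 8.3 RPM in plasma and 0 in every bone marrow library, at least 1.32-fold higher against 3 reads per library. The muscle list summed to 65.5 to 135 RPM in plasma and 37 to 349 RPM in bone marrow, and its 1 tested member was not called. The testis list summed to at most 5.11 RPM in plasma and 21.6 RPM in bone marrow, with 0 members tested.

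In the other direction, miRNAs of the HOX clusters and those named for stem and progenitor cells were higher in bone marrow. Of 9 tested members 8 were called higher in bone marrow under every scaling, against 33.1% of all tested, and 0 higher in plasma, with a median of -2.70 (-3.65 to -2.53). Their summed level was 6593 to 17812 RPM in plasma and 290223 to 396917 RPM in bone marrow. miR-10b, from the HOXD cluster, was at 5903, 4435, 10159, 13342 and 8469 RPM in plasma, none of which came near the bone marrow values given above (-4.05 ± 0.41, adjusted p = 5.96e-07). miR-10a, from the HOXB cluster, was at 1488, 1834, 2509.8, 3573 and 2727 RPM in plasma (-3.80 ± 0.30, adjusted p = 8.53e-08). miR-10b was not particular to marrow, since its median took place 4 of 16 tissues and kidney stood at 445638 RPM. miR-196b, also from a HOX cluster, was at 0, 3.96, 0, 1.92 and 0 RPM in plasma and 136, 105, 119, 175 and 129 RPM in bone marrow (-5.62 ± 0.50, adjusted p = 1.96e-07). miR-196a had 0 reads in all 5 plasma libraries and 10, 23, 6, 20 and 12 reads in bone marrow 1 to 5, in RPM at least 18.7-fold higher. miR-99a, miR-125a and miR-125b, active in blood stem cells and neighbours of let-7 hairpins, had log2 fold changes of -2.70, -2.46 and -3.50, without overlap. At least miR-196b and miR-125b passed the filter on low counts through bone marrow alone. Their direction therefore adds no weight to the count of members called.

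miR-26a, a widely expressed miRNA that represses the methyltransferase EZH2, showed the largest fall among the 10 most abundant miRNAs of bone marrow. Plasma held 459, 7712, 765, 2371 and 1526 RPM (-5.28 ± 0.51, adjusted p = 4.16e-07), and its median was the highest of 16 tissues in bone marrow and the lowest in plasma. Plasma 2 stood well above the other 4 but far under bone marrow. miR-30a, at 702, 652, 1360.5, 1675 and 1152 RPM in plasma and 19561, 25106, 21726, 20465 and 24004 RPM in bone marrow, fell by 3.27 on the log2 scale. miR-98, a let-7 family member, was at 94.6, 597, 189.5, 227 and 228 RPM in plasma and 9125, 6535, 7031, 10521 and 7238 RPM in bone marrow (-4.06 ± 0.23, adjusted p = 8.27e-09).

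The rest of the 12 largest falls by the naming rule sat at lower levels. miR-195 was at 3.64, 18.7, 13.7, 16.6 and 2.77 RPM in plasma and 1219.9, 1774, 1065, 1349 and 1775 RPM in bone marrow (-6.12 ± 0.40, adjusted p = 2.08e-08). miR-204, from an intron of TRPM3, was at 0, 1.13, 3.6, 1.92 and 5.53 RPM in plasma and 437, 715, 535, 746 and 984 RPM in bone marrow (-7.02 ± 0.53, adjusted p = 4.84e-08). miR-7, enriched in neurons and endocrine cells, had 2 reads over the 5 plasma libraries together and 208 over bone marrow, a ratio of reads per total of 675 with a 95% exact interval of 184 to 5608 that covers counting error only. Against 3 reads per plasma library, the measure used next for miR-8865, the fold for miR-7 was 57. miR-8865, a miRNA of dog annotation, had 0 reads in every plasma library and 136, 62.8, 168, 68.8 and 119.6 RPM in bone marrow, at least 29.5-fold higher against 3 reads per library. miR-424-5p, miR-129 and miR-542 had log2 fold changes of -4.71, -4.70 and -4.14, with 3.6, 4.84 and 3.19 RPM in plasma and 303, 308 and 124 RPM in bone marrow by median.

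White cell miRNAs divided. miR-223, the miRNA of granulocytes and monocytes, had its highest median of the 16 tissues in bone marrow, as a check of the label, and the next highest in plasma. The 3p arm was at 116, 1501, 259, 507 and 236 RPM in plasma and 5871, 3677, 3686, 5062 and 2727 RPM in bone marrow. No plasma library reached a bone marrow value, and plasma 2 stood above the other plasma libraries (-2.31 ± 0.35, adjusted p = 3.77e-05). The 5p arm fell alike, by 2.30 on the log2 scale. Of 10 tested members of the leukocyte list 7 were called higher in bone marrow and 2 higher in plasma, all 9 under every scaling (33.1% and 27.2% of all tested), with a median of -1.73 (-2.53 to -1.53). miR-146a, induced by NF-kB and damping it, was at 193, 219, 257, 363 and 399.6 RPM in plasma and 4325, 4121, 4329, 7961 and 6723 RPM in bone marrow (-3.16 ± 0.32, adjusted p = 6.18e-07). miR-155, of activated lymphocytes and macrophages, was at 25.5 to 240.1 and 497 to 1010.4 RPM (-2.25 ± 0.35, adjusted p = 4.19e-05), and miR-181a, of developing lymphocytes, at 2034, 14267, 3231, 4924 and 4448 and 38765, 20668, 28828, 35731 and 29941 RPM (-1.61 ± 0.25, adjusted p = 4.19e-05). miR-181b, miR-146b and miR-342 had log2 fold changes of -2.18, -3.05 and -0.99. At least miR-146b and miR-181a-3p passed the filter on low counts through bone marrow alone, so their direction adds no weight to the count of members called. miR-150, of mature lymphocytes, went the other way, at 313, 2849.6, 1023, 1083 and 805 RPM in plasma and 154, 297, 459, 243 and 464 RPM in bone marrow (2.63 ± 0.37, adjusted p = 1.9e-05), with overlap through plasma 1. miR-142-5p, of all blood lineages, was at 12752 to 34644 RPM in plasma and 9292 to 17682 RPM in bone marrow (1.90 ± 0.20, adjusted p = 8.82e-07). Its 3p arm, the member not called, was at 142 to 1284 and 538 to 1189 RPM. Plasma 2 held the most miR-223, miR-155, miR-181a and miR-142 of both arms among plasma libraries, and none of the named calls was lost without it.

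The inflammation and platelet lists each had members called in both directions. Of 6 tested inflammation members 4 were called higher in bone marrow (37.1% of all tested). Only 1, miR-21-3p, was called higher in plasma (45% of all tested), at 4.09 ± 0.44 (adjusted p = 9.86e-07). With a mean of 3.2 bone marrow reads, miR-21-3p passed the filter on low counts through plasma alone, which nearly fixed its direction. Under all scalings 2 were called higher in bone marrow (33.1% of all tested), miR-146a and miR-155, both also on the leukocyte list. miR-21-5p was at 1874, 13763, 3869, 7781 and 3893 RPM in plasma and 17596, 17224, 16441, 26686 and 18729.7 RPM in bone marrow, and its call (-0.85 ± 0.23, adjusted p = 0.00315) was lost with library totals less miR-486. The call for miR-221 (-0.89) was lost when plasma 3 or plasma 5 was left out, at -0.82 and -0.75. Of 10 tested platelet members 4 were called higher in bone marrow (37.1% of all tested), 2 higher in plasma (45%) and 4 not called, with a median of -0.56 (-1.49 to -0.39). miR-126, of endothelium and platelets, was at 1645 to 15785 RPM in plasma and 14425 to 24145 RPM in bone marrow for the 5p arm (-1.06 ± 0.31, adjusted p = 0.0054), whose call did not hold under all scalings, and at 61.9 to 1309 and 1594 to 3309 RPM for the 3p arm (-2.07 ± 0.46, adjusted p = 0.000857). The 3p arm of miR-28, at 164 to 4176 RPM in plasma and 460.2 to 749.6 RPM in bone marrow, was called higher in plasma at 1.81 and lost the call under library totals, at 1.21. miR-24 fell by 1.02 on the log2 scale and was called under every scaling.

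Stromal and smooth muscle miRNAs were higher in bone marrow. Of 6 tested members 5 were called so under every scaling (33.1% of all tested) and 0 were called higher in plasma, with a median of -2.25 (-3.25 to -2.09), and the summed level was 852 to 3410.0 RPM in plasma and 14106 to 20013 RPM in bone marrow. miR-143, of smooth muscle and fibroblasts, was at 775, 485, 1331, 2184 and 1432 RPM in plasma and 16432, 16529.8, 12079, 14134 and 17414 RPM in bone marrow (-2.55 ± 0.39, adjusted p = 4.03e-05). Its neighbour miR-145 was at 0 to 21.7 and 160.2 to 201 RPM (-3.04 ± 0.35, adjusted p = 2.13e-06). miR-218 and miR-199a-5p had log2 fold changes of -1.86 and -1.94. At least the 5p and 3p arms of miR-145 passed the filter on low counts through bone marrow alone, so their direction adds no weight to the count of members called.

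Of 9 tested in the let-7 list 4 were called higher in plasma and 5 higher in bone marrow (45% and 37.1% of all tested), 2 and 4 of them under all scalings (27.2% and 33.1%), shares near those of all miRNAs. let-7a was at 812, 3263, 1092, 1471 and 1508 RPM in plasma and 22796, 14965, 17338, 18413 and 15778 RPM in bone marrow (-2.55 ± 0.21, adjusted p = 9.28e-08), and let-7c and let-7e had log2 fold changes of -2.97 and -3.35. let-7g, which carries the same seed, was at 2642, 4577, 3554, 3573 and 3458 RPM in plasma and 992, 728, 1103, 857 and 727 RPM in bone marrow, higher in every plasma library (3.07 ± 0.25, adjusted p = 1.01e-07). let-7d rose, by 2.67 for the 3p arm under every scaling and by 1.66 for the 5p arm, whose call was lost under at least 1. let-7b (0.71) and let-7f (-0.75) lost their calls under alternatives. let-7b was at -0.40 under library totals and not called in 8 of the 10 fits that leave out 1 library, and let-7f was not called without plasma 1, 3 or 5 or bone marrow 3. Since let-7 members differ by few bases, reads counted on more than 1 of them were not separated.

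The miR-15/16 family also had members called in both directions. miR-16 was at 18530.5, 45944, 39860.2, 36269 and 37816 RPM in plasma and 23769, 15392, 16495, 17953 and 15042 RPM in bone marrow, with plasma 1 inside the bone marrow range (2.02 ± 0.22, adjusted p = 1.15e-06). miR-15a, its neighbour, was at 1754, 4899.6, 3903, 3790.0 and 2729 RPM in plasma and 838, 561, 443, 730.0 and 474 RPM in bone marrow, without overlap (3.48 ± 0.21, adjusted p = 1.15e-08). miR-15b rose by 1.15 under TMM and lost the call under library totals, at 0.26. miR-195 and miR-424-5p, which share the seed of miR-16, fell as given above, and miR-497, the neighbour of miR-195, was at 3.64 to 63.9 RPM in plasma and 105 to 175 RPM in bone marrow (-0.87 ± 0.32, adjusted p = 0.0226), a call lost without plasma 5 or bone marrow 5. Over the 25 groups of neighbouring hairpins with 2 or more tested members, named from the gene table of another dog assembly, 13 had every member called in 1 direction and 6 had members called in both. Under all 5 scalings 0 of the groups had members called in both directions. Of all tested miRNAs 82.1% were called under TMM, and 27.2% and 33.1% were called higher in plasma and in bone marrow under all scalings. miRNAs with copies at several places, such as miR-16, miR-92a, miR-181a and miR-181b, count in more than 1 group. The counts of groups are therefore descriptions, and agreement between neighbours was not tested.

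**Figure D4:**
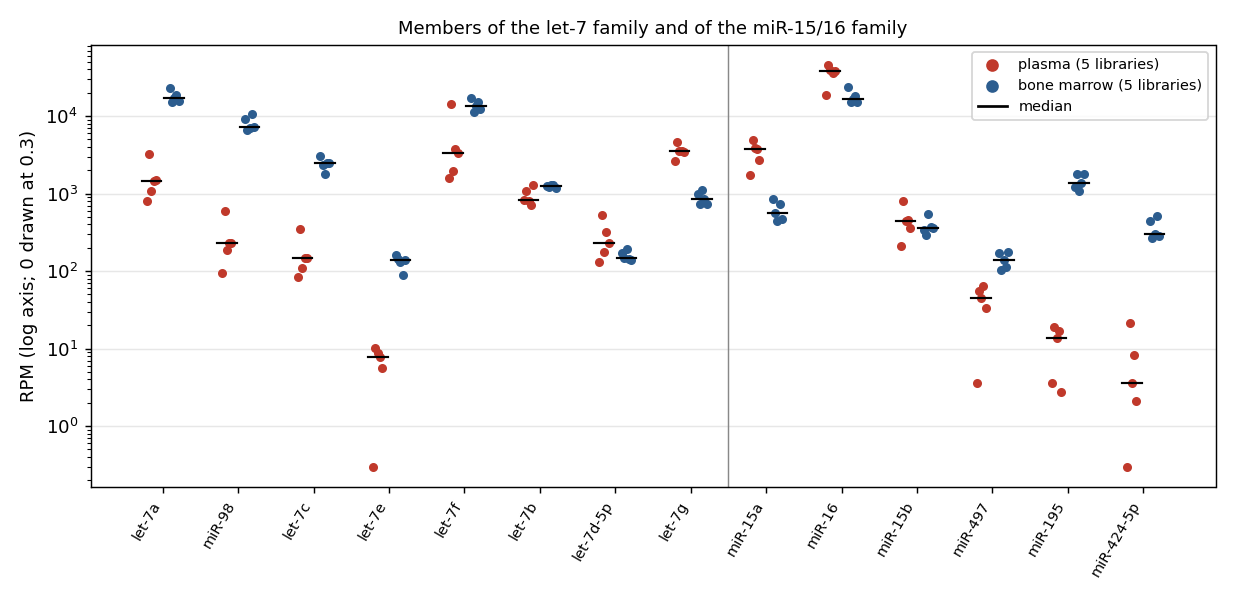
RPM on a log axis of 8 let-7 family miRNAs (left of the line) and 6 miR-15/16 family miRNAs (right) in the 5 plasma (red) and 5 bone marrow (blue) libraries, with the median as a bar and 0 drawn at 0.3. let-7a, miR-98, let-7c, let-7e, miR-195 and miR-424-5p lie lower in plasma, and let-7g, miR-15a and most values of miR-16 lie higher.

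The use of the 2 arms of a hairpin, a ratio within a library that no scaling can move, was compared between the groups. Arms were paired by name, so some pairs, such as those of miR-16 and let-7a, can hold reads of more than 1 locus. The miR-199 feature served as the 3p arm of both miR-199a and miR-199b. Arm use and the locus expressed were not separated for such pairs. limma on log2 of 5p over 3p reads, with 0.5 added, called 28 of 37 hairpins at an adjusted p under 0.05, 75.7%. In 34 of the 37 both arms exceeded 3 reads in at least 1 library of each group, and 26 of these were called, 8 with a higher share of 5p in plasma and 18 with a higher share of 3p. Over all 37 these were 9 (24.3%) and 19 (51.4%). The groups did not overlap in 21 of the 26. Since the plasma libraries were deeper, many pairs met the minimum of 10 reads on average through plasma. Among called pairs, bone marrow averaged under 5 reads in the weaker arm of miR-331, miR-21, miR-26b, miR-16, miR-1307 and miR-93. The same held for miR-130b, miR-425, miR-17, let-7a, miR-148b and miR-18a. With each arm averaging at least 10 reads in each group, a setting added after seeing the data, 13 of 17 hairpins were called. Among the 26 called hairpins given before, low counts included, the less used arm had the higher share in plasma in 13 and in bone marrow in 13. miR-144 stood at -1.72 ± 0.22 in plasma and 0.10 ± 0.30 in bone marrow, a difference of -1.82 ± 0.23 (SE, adjusted p = 2.97e-05), so that its 3p arm took more of the reads in plasma. miR-140 stood at -8.05 ± 0.76 in plasma and -4.12 ± 0.36 in bone marrow, a difference of -3.94 ± 0.36 (SE, adjusted p = 2.14e-06). miR-30a differed by -1.62 ± 0.25 (SE, adjusted p = 0.000107) and miR-151 by -1.69 ± 0.23 (SE, adjusted p = 4.83e-05). Both arms of miR-142 were well covered, at 5.92 ± 0.72 in plasma and 3.92 ± 0.21 in bone marrow, and the 5p arm took more of the reads in plasma, by 2.00 ± 0.33 (SE, adjusted p = 0.000189). miR-126 moved the same way, by 1.22 ± 0.26 (SE, adjusted p = 0.000995), as did miR-423, by 1.75 ± 0.29 (SE, adjusted p = 0.000189). The ratio of miR-21 fell by 5.15 ± 0.53 (SE, adjusted p = 5.62e-06), on a mean of 3.2 bone marrow reads of the 3p arm. For miR-181a and miR-30e the values were 7.53 ± 0.66 in plasma and 7.13 ± 0.36 in bone marrow, and 6.14 ± 0.29 in plasma and 6.13 ± 0.74 in bone marrow, and neither was called (adjusted p = 0.299 and 0.975). Tissue, extraction and RNA integrity cannot be told apart in these ratios either.

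**Figure D5:**
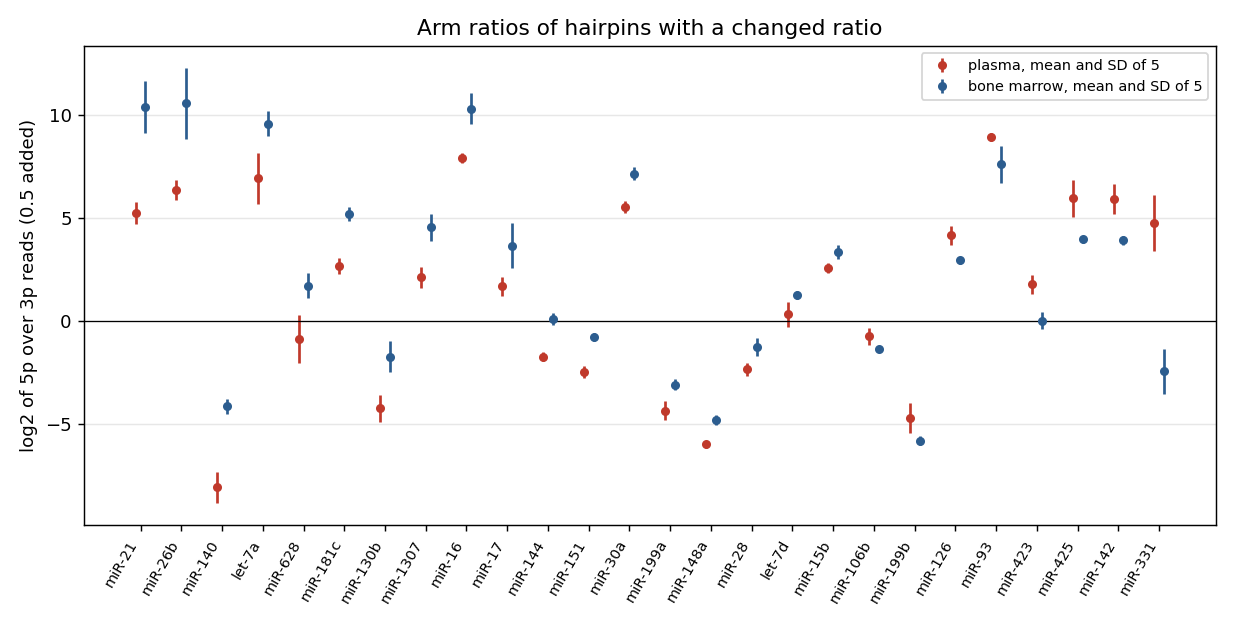
Mean log2 of 5p over 3p reads, with SD over 5 libraries, for the 26 called hairpins with both arms above 3 reads in each group, ordered by the difference of plasma (red) less bone marrow (blue). Hairpins on the left, such as miR-21 and miR-140, have less 5p in plasma, and those on the right, such as miR-331 and miR-142, have more.

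Of the 477 miRNAs, 95 had reads in plasma alone and 34 in bone marrow alone, counts that rest on plasma totals of 1288130 reads on average against 198575 in bone marrow, and 166 had reads in all 10 libraries. A median above 100 RPM was reached by 101 miRNAs in plasma, 123 in bone marrow and 86 in both. Plasma was the tissue with the highest median of the 16 for miR-486, miR-451, both arms of miR-144, miR-16, miR-25, miR-92a, miR-93, miR-107, miR-142-5p and miR-423-5p, and bone marrow for both arms of miR-223, miR-26a, miR-98, miR-186, miR-8865 and miR-424-5p. For miR-451, miR-144, miR-16, miR-25 and miR-93 bone marrow came next after plasma.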

How the data were processed

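Small RNA libraries of beagle dog tissues were sequenced by the study. Per the study's methods, the authors clipped adaptors, aligned reads to CanFam3.1 with OSA without mismatches, left out reads with more than 10 locations and made the deposited counts from reads overlapping known or putative miRNA loci. Other deposited columns, in reads per 1000000 (RPM), were recomputed from counts and totals and differed by at most 2.89e-09 of the value. Counts of a library exceed its deposited total by 0.107% to 1.16%. A miRNA not listed for a library was taken as 0 reads. Sample names were matched to titles, 1 table name was neither mapped nor used, and libraries were grouped by label, 5 against 5. No 2 replicates agreed within counting noise, the lowest chi-square per degree of freedom over 20 pairs being 14.4.

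edgeR 4.0.16 (R 4.3.3) quasi-likelihood tests used filterByExpr and TMM, and a call needed an adjusted p (Benjamini-Hochberg) under 0.05. Arm ratios were tested with limma 3.58.1 where both arms averaged at least 10 reads, and single values per library by two-sided exact permutation. The edgeR test was checked on simulated counts with as many rises as falls, and limma on simulated arm ratios. That check does not cover the shift between scalings. Neighbouring hairpins lay within 10000 bases in the RefSeq gene table of UU_Cfam_GSD_1.0, used for adjacency only. Named miRNAs are the 10 highest medians of each group, the 12 largest called changes in each direction with a median above 100 RPM and no overlap, and members of lists by cell type, pathway and family. The hairpin pairs with 10 reads on average were also restricted to those with 10 in each group. Members and lists were chosen with earlier results of these data known. Alternatives were other scalings, DESeq2 1.42.0, an exact rank-sum test, other filters, thinned counts, a fold threshold, all tissues in the fit, and each library left out.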

Additional observations from a re-analysis of the deposited data

Results flagged for a closer look

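Values far from the rest of their group of 5 were found in 25 of 178 groups of values examined by Dixon's ratio, with a critical value of 0.71. That value is passed by about 1 in 20 independent, normally distributed groups. These groups share the same libraries, so the number found cannot be set against chance. Plasma 1 had 229 miRNAs detected, against 356 to 387 in the other 4, and 1925 RPM of miR-144-3p.

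Plasma 2 stood above the other plasma libraries for 13 miRNAs, of which those of white cells were miR-223 at 1501 RPM, miR-155 at 240.1 RPM, miR-142-3p at 1284 RPM and miR-181a at 14267 RPM. Of let-7 members it held 3263 RPM of let-7a, 347 RPM of let-7c, 14435 RPM of let-7f and 597 RPM of miR-98. It also held 7712 RPM of miR-26a, 1251 RPM of miR-19a, 3138 RPM of miR-19b, 2317 RPM of miR-221 and 1309 RPM of miR-126-3p. This library had the largest total and the lowest share of miR-486, 42.3%, and what sets it apart was not tested.

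Plasma 4 stood above the other plasma libraries for epithelial and pancreatic miRNAs, with 1143 RPM of miR-141, 168 RPM of miR-200a-3p, 61.3 RPM of miR-429 and 51.1 RPM of miR-216a. Over the groups miR-200a-3p had 452 plasma reads and 2 bone marrow reads, a ratio per total of 34.8 with a 95% exact counting interval of 9.59 to 289.

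In bone marrow, library 1 was low for miR-10b at 217171 RPM, library 3 stood apart for miR-15b at 546 RPM, library 4 for miR-146b at 206 RPM and miR-21-5p at 26686 RPM, and library 5 for miR-301a at 55.2 RPM and miR-200a-3p at 9.20 RPM, which is the 2 reads just given.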

How the results depend on the processing

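Of 1698 values of named miRNAs under alternatives, 1574 kept their direction and side of the threshold, 69 lost the call, 23 gained it and 32 changed sign. miRNAs higher in plasma numbered 41 under library totals and 38 by the exact rank-sum test, against 68 of 151 tested. DESeq2 and the fit without a filter tested 477, with 96 and 148 higher in plasma and 107 and 92 higher in bone marrow, against 56 of 151. The median log2 fold change over all tested was -0.46 under library totals, -0.070 under DESeq2 size factors, -0.074 without the most abundant plasma miRNA and 0.53 with library totals less that miRNA, a setting chosen after seeing the data. With at least 50 reads on average in each arm 14 of 15 hairpins were called, and with at least 10 in each group 13 of 17, against 28 of 37. The difference in detected miRNAs was -40.4 in thinned libraries (exact permutation p = 0.00794), 55.8 at 10 or more reads (exact permutation p = 0.0476), 10.2 at 1 RPM or more (exact permutation p = 0.730) and 40.4 to 79.9 with 1 library left out, the highest without plasma 1 (exact permutation p = 0.0159, against 0.103). The difference in the share of the 10 most abundant was 6.68 to 10.7 percentage points with 1 library left out, and that in log2 of miR-451 over miR-23a 0.72 to 1.05. The cause was not tested.

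miR-191 was at -0.57 under library totals, -0.053 under DESeq2 size factors, -0.039 without the most abundant plasma miRNA, -0.053 by DESeq2, -0.57 on RPM and -0.012 with a mean of at least 10 reads. miR-186 was at -0.63, -0.070, -0.075, -0.070, -0.63 and -0.029 under these, and miR-20a at -0.56, -0.099, -0.072, -0.12, -0.57 and -0.019. Under library totals and on RPM miR-17-5p was at -0.36 and -0.37, let-7b at -0.40 and -0.40, and miR-19b at -0.25 and -0.26. Without a filter miR-18a was at 0.10 and miR-363 at 0.055. miR-142-3p was at 0.20 with library totals less miR-486, 0.40 without a filter and -0.37 to 0.075 with 1 library left out. No paired analysis was possible because the labels carry no dog number, and replicate numbers were given in accession order, which names a sample and pairs none. Bone marrow totals limit miRNAs under 12.6 to 18.5 RPM.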
